A study of Mus musculus with 15 samples.

Results

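The synaptic vesicle release machinery was followed in the mouse hippocampus across the extinction of contextual fear. Its 68 genes were chosen by their gene names on the array: synaptotagmins, synapsins, syntaxins, Vamp, Snap, complexin, Rab3, Sv2, syntaxin binding protein, Rims, Unc13 and vesicular glutamate transporter genes. They are 68 of the 26117 gene names measured, and each is represented by the brightest of its probes over all 15 arrays. Total hippocampal RNA of male C57BL/6J mice was labelled with Cy3 and hybridised to 1-colour Agilent arrays, 1 array per mouse, with 5 mice in each of 3 groups that the labels call biological replicates. E1 mice had been shocked in a conditioning box and were sampled 1 h after the first re-exposure to that box without shock. ELF mice were sampled 1 h after the low-freezing trial, which was trial 5 of such re-exposures 24 h apart. Control mice are called naive in the sample labels, whereas the design text says that they entered the box and were not conditioned, so E1 and ELF differ from control by conditioning as well as by extinction. All mice were of the same wild-type strain, and the labels give no age.

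Neurotransmitter release depends on vesicles that are filled by transporters, tethered and primed at the active zone, and fused with the plasma membrane when calcium enters the terminal. Fusion is driven by SNARE proteins, with Vamp proteins on the vesicle and syntaxins and Snap25 on the target membrane. Synaptotagmins sense calcium, complexins clamp and promote fusion, and Munc13 and Rim proteins prime vesicles for fusion.

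All values below are log2 signals relative to the 75th percentile of the same array, so that a difference of 1 is a factor of 2, and levels of different probes are not set against each other. That percentile lay between 1441 and 2932 intensity units, and the share of spots well above background ran from 83.5% to 97.2% per array. All 13 hippocampal neuron markers checked were well above background on all 15 arrays, and their mean per array lay at 2.20 to 2.34 in control, 2.13 to 2.50 in E1 and 2.23 to 2.53 in ELF. Endothelial markers moved with the groups. Of 10 measured, all well above background on every array, limma called 2 lower in E1 and 6 lower in ELF than in control, and their mean per array was -0.93 to -0.15 in control, -1.35 to -1.09 in E1 and -1.61 to -1.31 in ELF. The mean of 12 choroid plexus markers was 1.00 to 1.65 in control, 0.71 to 1.42 in E1 and -2.31 to 0.73 in ELF, with 0 called by limma, where 0 of 12 in E1 and 10 of 12 in ELF had an unadjusted p under 0.05 against control. Of the other marker lists, limma called 1 of 10 thalamus and habenula markers higher in E1 and 1 of 8 meningeal markers lower in ELF than in control. The part of these cell types in the differences below was not tested. In bulk tissue, fewer cells of a type and less RNA per cell cannot be told apart. Groups were also unevenly spread over 4 slides: slide 1 held control 1 to 4, slide 2 held control 5 and E1 1 to 3, slide 3 held E1 4 and 5 with ELF 3 and 4, and slide 4 held ELF 1, 2 and 5.

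None of the 68 release genes passed the test in any comparison. The test was limma over all 15 arrays with Benjamini-Hochberg adjustment over 26117 genes, and a call required an adjusted p under 0.05. Between E1 and control, 0 of 68 were called, where 0.188% of all genes were. At an unadjusted p under 0.05 there were 9, or 13.2% against 13.1% of all genes, with 7 higher and 2 lower in E1 where 9.07% of all genes were higher and 4.04% lower. Between ELF and control, 0 of 68 were called, where 2.15% of all genes were. At an unadjusted p under 0.05 there were 17, or 25% against 23% of all genes, with 10 higher and 7 lower in ELF where 15.7% of all genes were higher and 7.3% lower. Between ELF and E1, 0 of 68 were called, where 0.00766% of all genes were. At an unadjusted p under 0.05 there were 6, or 8.82% against 9.64% of all genes, with 1 higher and 5 lower in ELF where 5.64% of all genes were higher and 4% lower. With higher and lower genes counted as one, the shares of release genes were near those of all genes in each comparison. Split by direction they were not near for ELF against E1, where 5 of the 6 release genes were lower in ELF. A difference above 0 was measured for 44.1% of release genes in ELF minus E1, beside 60.3% of all genes. For E1 minus control it was 64.7% beside 58.8%, and for ELF minus control 61.8% beside 65%. The lowest adjusted p was 0.105 for E1 against control, 0.0666 for ELF against control and 0.407 for ELF against E1.

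The differences themselves were mostly small. The median over the 68 genes was 0.07 for E1 minus control, beside 0.04 over all genes. It was 0.05 for ELF minus control, beside 0.10, and -0.02 for ELF minus E1, beside 0.05. A difference smaller than 0.5 in either direction was measured for 64 genes in E1 against control, 61 in ELF against control and 67 in ELF against E1. The median distance from a difference to the end of its 95% confidence interval was 0.28, and the whole interval lay within 1 of zero for 64, 58 and 64 genes in these comparisons. Groups did not overlap for 1 gene in each comparison, or 1.47% of the 68. Over all genes the shares were 3.71%, 4.73% and 2.06%.

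**Figure D1:**
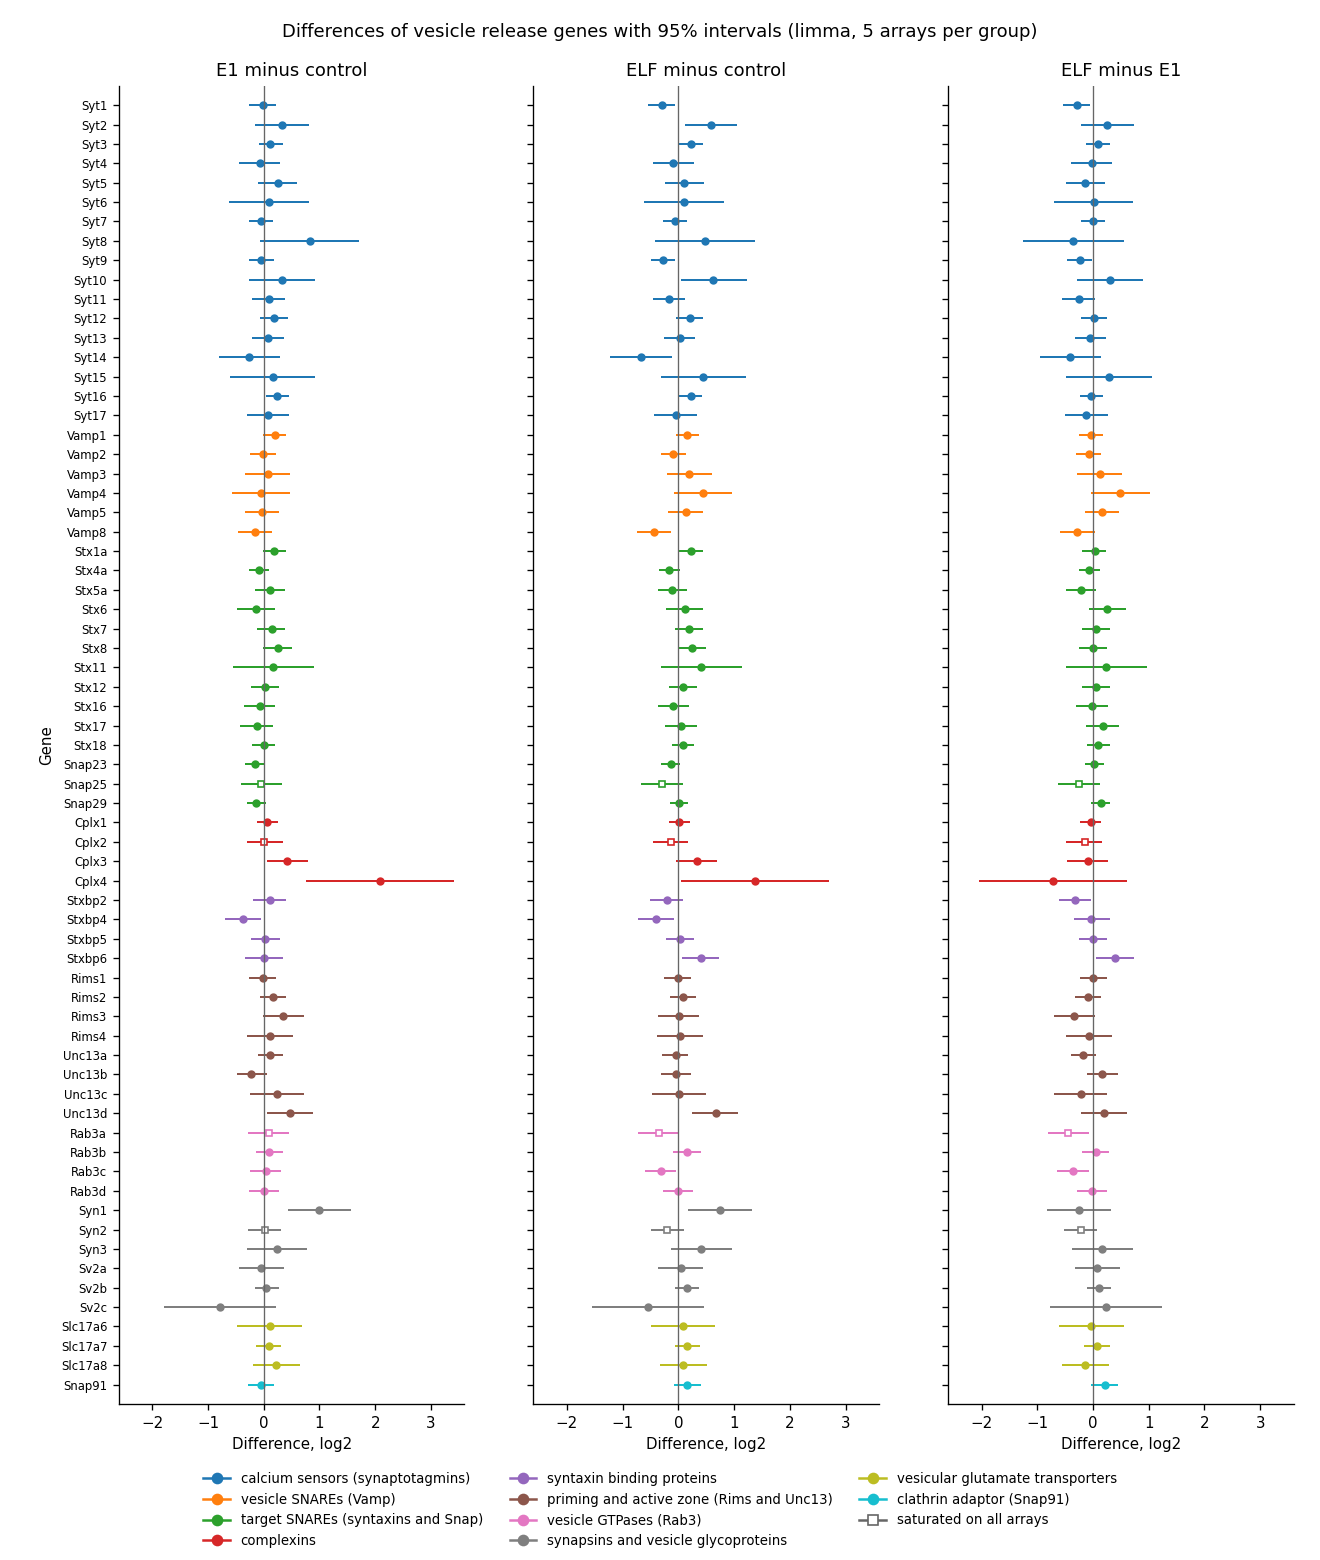
Differences of the release genes on the log2 scale (x axis), without 1 gene that is not shown, with 95% confidence intervals, grouped and coloured by role (rows), for E1 minus control, ELF minus control and ELF minus E1. Open squares are the 4 genes whose probe was saturated on all 15 arrays. Most points lie within 0.5 of zero. Syn1 (1.00) and Cplx4, which was well above background on 1 of 5 control arrays, are the farthest above zero for E1 minus control.

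The synapsins are phosphoproteins that tether vesicles to one another and to the cytoskeleton. Syn1 showed the largest difference from control of all release genes that were well above background on all 15 arrays. It read 2.94, 2.84, 3.08, 3.45 and 3.93 on control arrays 1 to 5, then 4.14, 3.82, 4.20, 3.93 and 5.15 on E1 arrays 1 to 5, and 3.92, 3.86, 4.19, 4.38 and 3.65 on ELF arrays 1 to 5. Control 5 was the highest control and reached into the range of both other groups, whereas controls 1 to 4 lay below every E1 and ELF array. Group means were 3.25 ± 0.45 in control, 4.25 ± 0.53 in E1 and 4.00 ± 0.29 in ELF (SD, n = 5). The difference was 1.00 (SE 0.26, 95% confidence interval 0.45 to 1.55, limma adjusted p = 0.105) for E1 minus control and 0.75 (SE 0.26, adjusted p = 0.113) for ELF minus control, and neither passed the test. With the replicate number as a block over the control and E1 arrays alone, an alternative chosen after seeing the data, the E1 difference passed at 1.00 (SE 0.12, limma adjusted p = 0.0143). Without control 5 both passed, at 1.17 (limma adjusted p = 0.0167) and 0.92 (adjusted p = 0.0381).

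The Syn1 reading came from a probe in a stretch of unusually high GC content, and its sequence is printed with that of the Syn1 promoter because the result turns on this one probe. The probe lies on the minus strand at chrX:19353787-19353846 in mm7, the build of the array design. The promoter window, 250 bases before to 50 bases after the gene start, is RefSeq's for GRCm38.p6 at chrX:20920869-20921168, minus strand. Capitals in the promoter mark, in order, the left arm of the RE1 element bound by the neuronal repressor REST and the cAMP response element.
Syn1 probe: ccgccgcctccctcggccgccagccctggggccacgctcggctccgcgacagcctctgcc
Syn1 promoter: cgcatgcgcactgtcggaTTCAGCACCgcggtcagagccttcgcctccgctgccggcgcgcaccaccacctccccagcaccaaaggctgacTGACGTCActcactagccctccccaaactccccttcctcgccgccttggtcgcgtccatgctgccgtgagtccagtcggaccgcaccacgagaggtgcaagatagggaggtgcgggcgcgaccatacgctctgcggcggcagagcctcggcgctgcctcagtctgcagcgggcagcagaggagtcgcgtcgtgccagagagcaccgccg

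Of the 60 bases of the Syn1 probe, 81.7% are G or C, and only 2 of the 26117 genes had a probe with a higher share. A second probe for the same Syn1 transcript lies 59.9 kb away at chrX:19293917-19293976 and has 43.3% G or C. It read 0.96 ± 0.16 in control, 1.17 ± 0.15 in E1 and 1.08 ± 0.11 in ELF (SD, n = 5), a difference of 0.21 (SE 0.10, limma adjusted p over all probes 0.394) for E1 minus control and 0.12 for ELF minus control. The difference seen with the first probe was thus much smaller with the second. Of the remaining Syn1 probes, which match separate complementary DNA clones, one differed by -0.07 and -0.13 in these comparisons. The other, on the opposite strand, differed by -0.08 and 0.31. The -0.08 includes a reading of -6.06 on E1 5, beside -4.19 to -3.94 on the other E1 arrays and a control mean of -4.36.

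**Figure D2:**
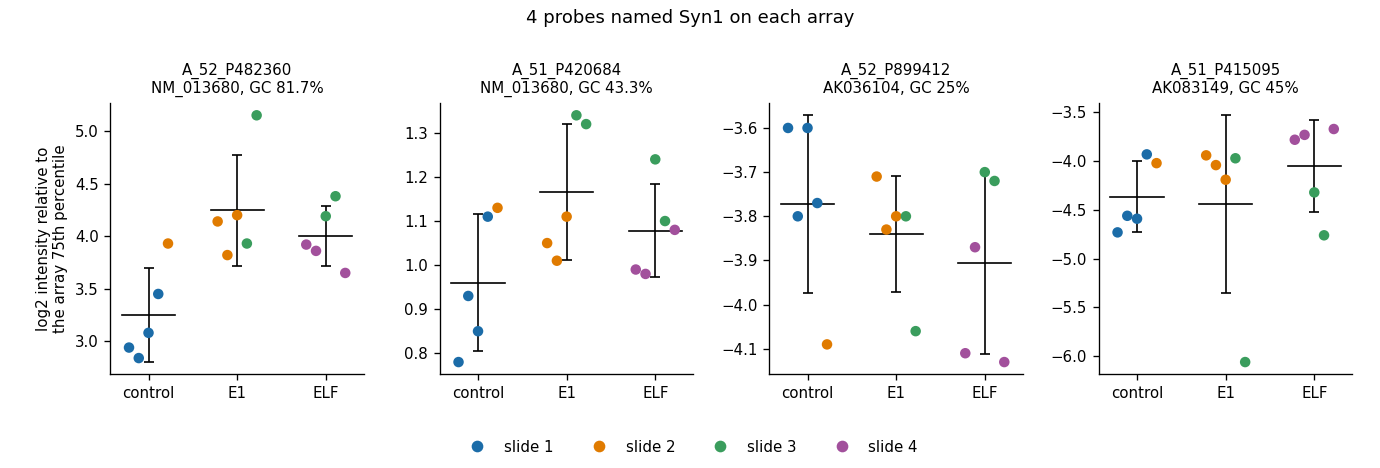
Log2 signal relative to the array's 75th percentile (y axis) of the 4 Syn1 probes on each of the 15 arrays (points, by group on the x axis). The GC-rich probe has a mean of 3.25 in control and 4.25 in E1 (limma adjusted p = 0.105), whereas the second probe of the same transcript lies between 0.78 and 1.34 on all arrays.

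Across all genes, the difference between groups moved with the GC content of the probe. The median of E1 minus control was -0.26 over the 1068 genes whose probe had under 35% G or C and 0.33 over the 110 genes at 65% or more. Medians for ELF minus control ran from -0.13 to 0.29 over the same classes. On single arrays the median of the GC-rich class was -0.73, -0.68, -0.67 and -0.31 on controls 1 to 4 and -0.26 on control 5, beside -0.50 to 0.28 on E1 arrays and -0.59 to 0.01 on ELF arrays. Controls 4 and 5 thus lay within the E1 range in this measure, and controls 1 to 3 below it. When each array was centred within classes of probe GC, an alternative chosen after seeing the data, the Syn1 difference was 0.63 (SE 0.22, limma adjusted p = 0.21) for E1 and 0.48 (adjusted p = 0.218) for ELF. The release genes followed the same order, with medians of 0.02 over 42 genes at 35% to 45%, 0.12 over 22 genes at 45% to 55% and 0.33 over 2 genes at 55% to 65% for E1 minus control. Stxbp4, the one release gene with a probe under 35%, had -0.37.

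**Figure D3:**
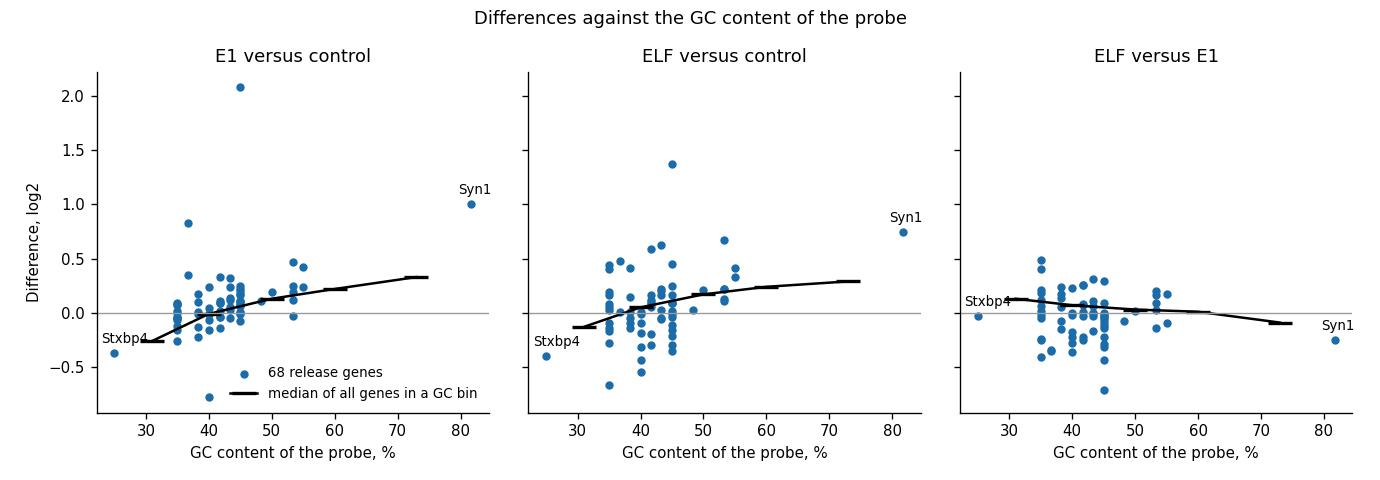
Difference between groups on the log2 scale (y axis) against the percent of G and C in the probe (x axis) for the 68 release genes (points) with the median of all genes in each GC class (line). The all-gene median for E1 minus control climbs from -0.26 to 0.33, and Syn1 is the release gene farthest to the right.

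Among the other vesicle proteins, Syn2, a second synapsin, was saturated on all arrays, so that no difference is given for its brightest probe. Syn3, a further synapsin, differed by 0.24 (SE 0.25, limma adjusted p = 0.74) for E1 and 0.41 (SE 0.25, adjusted p = 0.335) for ELF against control. Its ELF arrays were split by slide, at -1.48, -1.11 and -1.34 on slide 4 and -2.21 and -2.62 on slide 3, beside -2.34 to -1.88 in control. Without ELF 4 the ELF minus control difference passed the test at 0.62 (limma adjusted p = 0.0448), whereas ELF minus E1 with slide as a fixed term was -0.73 (adjusted p = 0.0252). A second Syn3 probe differed by 0.00 between ELF and control. An unsaturated Syn2 probe differed by -0.11 (SE 0.23, limma adjusted p = 0.886) for E1 and -0.27 (adjusted p = 0.498) for ELF against control. The -0.27 includes a reading of 2.69 on ELF 2, beside 3.78 to 4.16 on the other ELF arrays and a control mean of 4.03. Sv2a and Sv2b, vesicle glycoproteins that support release, differed by -0.04 (SE 0.18, adjusted p = 0.957) and 0.05 (SE 0.09, adjusted p = 0.863) for E1, and by 0.05 and 0.16 for ELF, against control. Sv2c was dim, well above background on 8 of 15 arrays, and read -6.60 to -6.35 on controls 1 to 4 but -3.84 on control 5. The vesicular glutamate transporters load vesicles with glutamate, and Slc17a7 is the main one of hippocampal principal cells. Slc17a7 read 1.88 ± 0.16 in control, 1.97 ± 0.08 in E1 and 2.04 ± 0.15 in ELF (SD, n = 5), with a 95% confidence interval of -0.12 to 0.30 for E1 minus control. Slc17a6 and Slc17a8 differed by 0.11 (SE 0.26) and 0.22 (SE 0.19) for E1 and by 0.08 and 0.09 for ELF against control. Limma without slide called none of the 3 transporters, and the brightest probe of each had an unadjusted p above 0.05 in each comparison. A second Slc17a6 probe differed by 0.19 for E1 and -0.56 for ELF against control. For ELF minus E1 it differed by -0.75 (SE 0.33, limma adjusted p over all probes 0.481), with a reading of -2.75 on ELF 2. With slide as a fixed term, Slc17a8 was called lower in ELF than in E1 at -0.79 (limma adjusted p = 0.0165). It read -1.95 and -2.12 on the ELF arrays of slide 3 and -1.37, -1.20 and -1.15 on those of slide 4. A second Slc17a8 probe differed by 0.07 for ELF minus E1.

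Rab3 GTPases recruit vesicles to the active zone. Rab3a was saturated on all arrays. Rab3c read 0.03, 0.39, 0.37, 0.31 and 0.54 on control arrays 1 to 5, 0.48, 0.39, 0.34, 0.27 and 0.35 in E1, and -0.02, -0.35, 0.23, 0.29 and -0.10 in ELF. ELF 1, 2 and 5, the arrays of slide 4, were lower than every control and E1 array, while ELF 3 and 4 lay within the control range. The difference was -0.32 (SE 0.12, limma adjusted p = 0.146) for ELF minus control and -0.36 (SE 0.12, adjusted p = 0.407) for ELF minus E1. On slide 3, which holds both groups, ELF minus E1 was -0.05. A second Rab3c probe differed by -0.12 between ELF and control. Rab3b and Rab3d, close relatives of Rab3a, differed by 0.10 and 0.01 for E1 and by 0.15 and -0.01 for ELF. A second Rab3d probe differed by 0.48 (SE 0.13, limma adjusted p over all probes 0.0634) for ELF minus control and 0.46 (adjusted p = 0.354) for ELF minus E1. Snap91, a clathrin adaptor that helps to retrieve vesicle membrane, differed by -0.05 (SE 0.10) for E1 and 0.16 (SE 0.10, adjusted p = 0.373) for ELF, with the probe saturated on 1 array. A second, unsaturated Snap91 probe differed in the other direction for ELF, by -0.65 (SE 0.17, limma adjusted p over all probes 0.0552), and by -0.38 for E1.

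Among the vesicle SNAREs, Vamp2, the partner of syntaxin and Snap25 in fast release, differed by -0.01 (SE 0.10, limma adjusted p = 0.981) for E1 and by -0.09 (adjusted p = 0.606) for ELF, and it was saturated on 2 arrays. Vamp1, which serves the same step in other neurons, differed by 0.20 (SE 0.09, adjusted p = 0.376) and 0.16. Vamp8, the SNARE of late endosomes and of secretion in many non-neuronal cells, had the lowest adjusted p of this family. It read 0.92, 0.50, 0.77, 0.50 and 0.44 on control arrays 1 to 5, 0.33, 0.46, 0.37, 0.56 and 0.59 in E1, and 0.31, 0.39, -0.22, 0.00 and 0.45 in ELF. ELF 3 and 4, both on slide 3, were the lowest, and ELF 5 overlapped the controls. The Vamp8 difference was -0.44 (SE 0.14, limma adjusted p = 0.0863) for ELF minus control and -0.28 (adjusted p = 0.528) for ELF minus E1. It passed the test for ELF minus control with the array median as the reference at -0.54 (adjusted p = 0.0191), in the authors' value table at -0.53 (adjusted p = 0.0183) and after centring within GC classes at -0.49 (adjusted p = 0.0243). With slide as a fixed term the ELF minus E1 difference was -0.69 (adjusted p = 0.0162). A second Vamp8 probe (chromosome 6) differed by -0.16 between ELF and control. Over the 6 Vamp genes the differences from control ranged from -0.16 to 0.20 in E1 and from -0.44 to 0.44 in ELF. The 0.44 (SE 0.24, limma adjusted p = 0.276) was that of Vamp4, an endosomal and Golgi SNARE, which read 3.57 on ELF 2 and 1.84 to 2.43 on the other ELF arrays.

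Of the 14 syntaxin and Snap genes on the target side, limma called 0 in each comparison, with 2 in E1 against control, 2 in ELF against control and 0 in ELF against E1 at an unadjusted p under 0.05, where the shares over all genes were 13.1%, 23% and 9.64%. Stx1a, a plasma membrane syntaxin of neurons, read 0.66 ± 0.14 in control, 0.85 ± 0.16 in E1 and 0.88 ± 0.08 in ELF (SD, n = 5). Its difference was 0.19 (SE 0.09, limma adjusted p = 0.391) for E1 and 0.22 (SE 0.09, adjusted p = 0.175) for ELF, and within slide 2 it was 0.05. Snap25 was saturated on all arrays, and its unsaturated probe differed by 0.15 for E1 and 0.16 for ELF against control. Over all 14 genes the differences from control ranged from -0.16 to 0.25 in E1 and from -0.30 to 0.41 in ELF. The -0.30 came from the saturated Snap25 probe, and the 0.41 from Stx11, whose ELF arrays were split by slide. Stx8, an endosomal syntaxin, differed by 0.25 (SE 0.11, adjusted p = 0.358) for E1. The other Stx8 probes differed by -0.21, 0.10 and -0.34 (SE 0.15, limma adjusted p over all probes 0.35) for E1. The -0.21 includes a reading of -0.26 on E1 5. Snap29, which acts in endosomal and autophagosomal fusion, was the one gene whose ELF and E1 arrays did not overlap, at 1.78 to 1.94 against 1.53 to 1.75, and the difference was 0.14 (SE 0.07, limma adjusted p = 0.536). The other Snap29 probes differed by -0.04 and 0.17 for ELF minus E1.

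The synaptotagmins formed the largest family, with 17 genes and median differences of 0.09 for E1 and 0.10 for ELF against control. Syt1 is the main calcium sensor for fast release in forebrain neurons. It read 5.07, 4.81, 4.79, 4.90 and 4.87 on control arrays 1 to 5, 4.66, 4.77, 4.94, 4.87 and 5.14 in E1, and 4.73, 4.44, 4.78, 4.41 and 4.56 in ELF. All ELF arrays lay below all control arrays, the one such case among the release genes, but ELF 3 came within 0.01 of the lowest control. The difference was -0.30 (SE 0.11, 95% confidence interval -0.53 to -0.08, limma adjusted p = 0.115) for ELF minus control and -0.01 (SE 0.11, adjusted p = 0.978) for E1 minus control. This probe was saturated on 7 arrays. An unsaturated Syt1 probe gave -0.40 (SE 0.14, adjusted p = 0.117) for ELF minus control, but there the groups overlapped, with ELF 3 at 4.09 and control 5 at 4.04. The mean of ELF minus control was below zero with all 5 Syt1 probes, at -0.70 to -0.26. With the 3 dimmest of these probes, ELF 2 lay far below the other ELF arrays. It read 1.36, -0.27 and -0.66, beside 2.32 to 2.58, 0.38 to 0.84 and 0.09 to 0.43 on the others. In the authors' value table the Syt1 difference passed the test at -0.40 (limma adjusted p = 0.0466).

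Other synaptotagmins differed in both directions, from -0.26 to 0.83 in E1 and from -0.67 to 0.63 in ELF over the 17 genes, and the 0.83 was that of the dim Syt8. Syt16, which does not bind calcium through its C2 domains, was the one gene whose E1 and control arrays did not overlap. It read 1.24, 1.47, 1.32, 1.27 and 1.53 in control and 1.67, 1.58, 1.61, 1.56 and 1.61 in E1, a difference of 0.24 (SE 0.09, limma adjusted p = 0.245). The other Syt16 probes differed by -0.02 and 0.20. Syt9, a fast calcium sensor, differed by -0.28 (SE 0.09, adjusted p = 0.10) for ELF minus control. Syt14 differed by -0.67 (SE 0.25, adjusted p = 0.133) for ELF, with ELF 2 at -5.42 far below the other arrays. Syt2, the fast sensor of many hindbrain and inhibitory synapses, read -4.47, -4.36, -4.53, -4.59 and -4.0 in control, -4.12, -4.40, -4.18, -3.81 and -3.79 in E1, and -3.70, -3.45, -4.27, -4.37 and -3.21 in ELF. The ELF arrays of slide 4 were the 3 highest of all, and those of slide 3 lay among the controls. Syt2 differed by 0.59 (SE 0.21, limma adjusted p = 0.132) for ELF minus control and by 0.26 (adjusted p = 0.754) for ELF minus E1, and the latter turned to -0.52 (adjusted p = 0.0362) with slide as a fixed term.

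**Figure D4:**
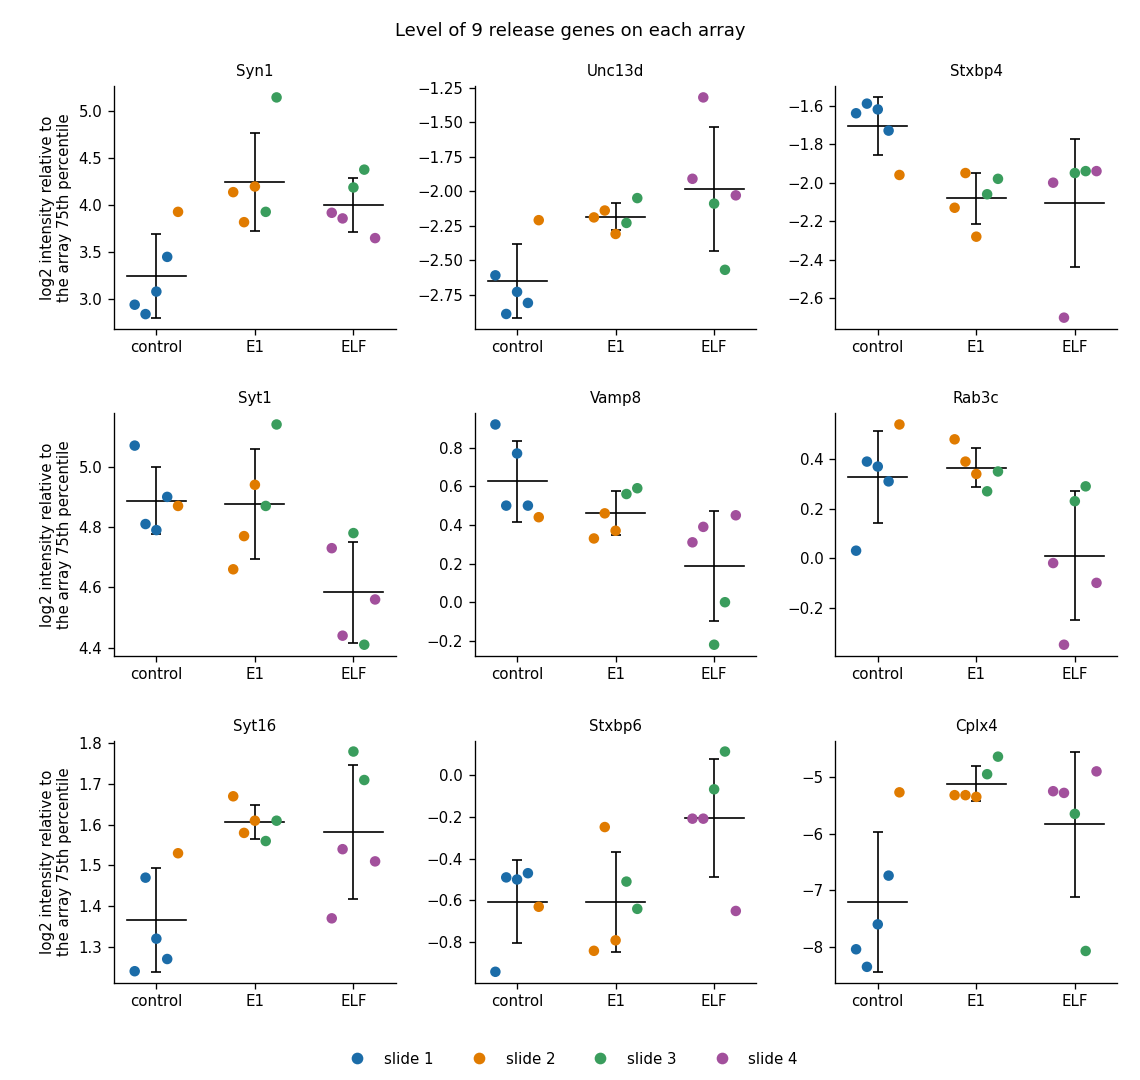
Log2 signal relative to the array's 75th percentile (y axis) of 9 release genes on each array, by group (x axis) and coloured by slide, with the mean and SD of each group of 5. Control 5 (slide 2) lies with the E1 arrays for Syn1 and Cplx4, and the ELF arrays of slides 3 and 4 lie apart for Rab3c and Vamp8.

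Complexins bind the assembled SNARE complex. Cplx1 read 4.01 ± 0.11 in control, 4.07 ± 0.07 in E1 and 4.02 ± 0.12 in ELF (SD, n = 5), and the 95% confidence interval of E1 minus control was -0.11 to 0.23. Cplx2 was saturated on all arrays, and its unsaturated probe differed by 0.14 (limma adjusted p = 0.795) for E1 and -0.21 (adjusted p = 0.483) for ELF against control. The -0.21 includes a reading of 3.16 on ELF 2, beside 4.02 to 4.38 on the other ELF arrays and a control mean of 4.16. Cplx3, a complexin of retina and some cortical neurons, differed by 0.42 (SE 0.16, limma adjusted p = 0.271) for E1, and by 0.01 within slide 2. After centring within GC classes this was 0.23, and a second Cplx3 probe differed by 0.00 (SE 0.26) for E1. Cplx4, a retinal complexin, was well above background on 1 of 5 control, 5 of 5 E1 and 4 of 5 ELF arrays. It read -8.04, -8.35, -7.60, -6.74 and -5.27 on control arrays 1 to 5, -5.32, -5.32, -5.35, -4.95 and -4.64 in E1, and -5.25, -5.28, -5.65, -8.07 and -4.90 in ELF. Control 5 again lay among the E1 arrays, and E1 minus control was -0.06 within slide 2. The fitted difference of 2.08 (limma adjusted p = 0.147) sets E1 against a group that was mostly not well above background, and Cplx4 was kept through its E1 and ELF arrays, so its size is not fixed by these data.

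Priming factors of the Unc13 and Rims families make vesicles ready to fuse and hold them near calcium channels. Unc13a, the main priming factor of excitatory synapses, differed by 0.12 (SE 0.10, limma adjusted p = 0.656) for E1 and -0.05 (adjusted p = 0.761) for ELF. Rims1, a scaffold of the active zone, differed by -0.01 (SE 0.10) in both. Rims3, a short Rim protein, differed by 0.35 (SE 0.16, limma adjusted p = 0.388) for E1 minus control and -0.34 (adjusted p = 0.523) for ELF minus E1. A second Rims3 probe differed by 1.02 (SE 0.24, limma adjusted p over all probes 0.0868) for E1 minus control and 0.72 (adjusted p = 0.108) for ELF minus control. It read -5.90 to -5.47 on controls 1 to 4 and -4.61 on control 5, beside -4.66 to -4.31 in E1. Over the 8 Unc13 and Rims genes the differences from control ranged from -0.22 to 0.47 in E1 and from -0.05 to 0.67 in ELF. Unc13d (chromosome 11, 116171566 to 116171625 in mm7), known for granule release in cytotoxic lymphocytes and platelets, had the lowest adjusted p of all release genes. It read -2.61, -2.89, -2.73, -2.81 and -2.21 on control arrays 1 to 5, -2.19, -2.14, -2.31, -2.23 and -2.05 in E1, and -1.91, -1.32, -2.09, -2.57 and -2.03 in ELF. Controls 1 to 4 lay below every E1 and ELF array, and control 5 lay inside both ranges. Unc13d differed by 0.67 (SE 0.19, 95% confidence interval 0.27 to 1.06, limma adjusted p = 0.0666) for ELF minus control and by 0.47 (SE 0.19, adjusted p = 0.29) for E1 minus control, and within slide 2 by 0.00. For ELF minus control it passed the test under quantile normalization at 0.58 (adjusted p = 0.0326), without control 5 at 0.78 (adjusted p = 0.0225) and without ELF 4 at 0.81 (adjusted p = 0.0117).

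Syntaxin binding proteins regulate SNARE assembly. Stxbp4, described in insulin-regulated transport, read -1.64, -1.59, -1.62, -1.73 and -1.96 in control, -2.13, -1.95, -2.28, -2.06 and -1.98 in E1, and -2.00, -2.70, -1.95, -1.94 and -1.94 in ELF. Controls 1 to 4 were the highest arrays and control 5 lay with the other groups. The Stxbp4 difference was -0.37 (SE 0.14, limma adjusted p = 0.271) for E1 and -0.40 (SE 0.14, adjusted p = 0.123) for ELF, or -0.15 and -0.27 after centring within GC classes. The other Stxbp4 probes differed by -0.86 and -0.13 for E1 and by -0.11 and -0.29 for ELF, and the -0.86 includes a reading of -5.30 on E1 5. Stxbp2, which acts in granule release of immune cells, differed by -0.32 (SE 0.13, limma adjusted p = 0.464) for ELF minus E1. Stxbp6, or amisyn, which competes for SNARE binding, differed by 0.00 (SE 0.15) for E1 and 0.40 (SE 0.15, adjusted p = 0.14) for ELF against control.

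Several differences between E1 and control varied with the slide of the control arrays. Control 5 lay nearer to the E1 mean than to the mean of controls 1 to 4 for 54 of the 68 release genes (79.4%), beside 69.6% of all genes. Of the 10 release genes with a difference of at least 0.3 between E1 and control, 3 kept its direction and at least 50% of its size within slide 2. Among these 3 was the dim Sv2c, whose control 5 read -3.84, beside -6.60 to -6.35 on controls 1 to 4. Its difference was -0.78 over all arrays and -3.15 within slide 2. That slide offers 1 control array against 3 E1 arrays and carries no error of its own. With slide as a fixed term, the Syn1 difference was 0.12 for E1 and -0.13 for ELF, and that of Unc13d was 0.00 and -0.19, against control. Slide and the response to E1 can therefore be told apart only through control 5. For ELF against E1, slide as a fixed term gave 11 called release genes, where 19.6% of all genes were called, and this comparison then rests on the 4 arrays of slide 3. With the replicate number as a block over the control and E1 arrays alone, limma called 6 release genes (Cplx4, Stx8, Syn1, Syt5, Syt8 and Unc13d), all higher in E1 and with Cplx4 and Syt8 dim, where 12.3% of all genes were called. With that block over all 15 arrays it called 0, with 7 at an unadjusted p under 0.05.

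Apart from slide as a fixed term, the settings under which single release genes passed also called more genes over the whole array. For ELF against control, 6.51% of all genes were called under quantile normalization, 4.61% with the array median as reference, 6.06% in the authors' value table and 4.5% after GC centring. The share was 8.08% without control 5 and 19.8% without ELF 4, where 9 release genes were called, among them Unc13d, Rab3c, Syt2 and Stx11. Stx11, a syntaxin of immune cells, read -2.12, -1.69 and -1.99 on the ELF arrays of slide 4 and -3.19 and -3.93 on those of slide 3, beside -3.13 to -2.76 in control. For E1 against control, 1.74% of all genes were called under quantile normalization, 0.915% in the authors' value table and 4.28% without control 5. With slide as a fixed term, 0.0115% of all genes were called for E1 and 0.318% for ELF against control, and the 1 release gene among them was Sv2c in both.

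Saturation and probe choice bounded the readings of several core genes. Of the 68 release genes, 65 were well above background on all 15 arrays, and the exceptions were Cplx4, Syt8 and Sv2c. The probes of 9 genes were saturated on at least 1 array, 4 of them on all 15. Where 42 genes had more than 1 kept probe, all probes of a gene differed in the same direction for 19 genes in E1 against control, 18 in ELF against control and 15 in ELF against E1. Of the 136 kept probes limma called 0 in each comparison, where 0.104%, 2.36% and 0.0052% of all 38457 probes were called, and 16, 28 and 16 had an unadjusted p under 0.05. These are 11.8%, 20.6% and 11.8% of the 136, beside 13.1%, 23.4% and 9.98% of all probes.

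The wider presynaptic apparatus also gave no calls. Of 92 further presynaptic genes listed, 87 were measured, and limma called 0 in each comparison. At an unadjusted p under 0.05 there were 8 for E1 against control, all higher, 13 for ELF against control, of which 11 were higher, and 11 for ELF against E1, of which 7 were lower. These are 9.2%, 14.9% and 12.6% of the 87, beside 13.1%, 23% and 9.64% of all genes. The medians were 0.08, 0.06 and -0.02, beside 0.04, 0.10 and 0.05 over all genes. Doc2a, a calcium sensor of spontaneous release, had the lowest p for E1 minus control, with 0.41 (SE 0.12, limma adjusted p = 0.147). Its control arrays, at -0.70 to -0.38, did not overlap the E1 arrays, at -0.21 to 0.08. Sncb, which encodes beta-synuclein, differed by 0.40 (SE 0.14, adjusted p = 0.212) for E1, and by 0.03 within slide 2. Svop, a transporter-like vesicle protein, had the lowest adjusted p for ELF minus control, with a difference of 0.32 (SE 0.08, limma adjusted p = 0.0544), followed by Napg, a SNAP protein that recycles SNARE complexes, with 0.34 (adjusted p = 0.0599), and Lin7b, a presynaptic scaffold protein, with 0.32 (adjusted p = 0.0835). With slide as a fixed term, Svop differed by 0.08, Napg by 0.13 and Lin7b by 0.00. For ELF minus E1 the lowest p-values were those of Rab3il1, which binds Rab3a, with 0.43 (SE 0.10, limma adjusted p = 0.257), and Nrxn2, a presynaptic adhesion receptor, with -0.33 (SE 0.09, adjusted p = 0.306). Nsf, the ATPase that takes SNARE complexes apart, differed by -0.45 (adjusted p = 0.419), with its probe saturated on 13 arrays.

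Promoter windows of the length given for Syn1 were found in RefSeq for 53 of the 68 release genes and for 27025 genes in all. Each was searched on both strands. The cAMP response element TGACGTCA was in 1 release gene window (1.89%, Syn1) and in 2.03% of all windows. The RE1 left arm TTCAGCACC was in 2 (3.77%, Syn1 and Unc13a) and in 0.433% of all. The Egr1 site GCGTGGGCG was in 1 (1.89%, Unc13a) and in 0.707% of all, and its variant GCGGGGGCG in 5 (9.43%, Cplx1, Stxbp5, Syn2, Syt16 and Vamp4) and in 3.31% of all. These are matches of letters in a fixed window and describe the sequence only.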

How the data were processed

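Per the file headers, Agilent Feature Extraction 9.5.3.1 read the arrays and gave each of 45018 spots a background-subtracted, detrended processed intensity and flags for spots well above background, saturated or outlying. A deposited table of the authors' own values is on a log2 scale. How these were normalized between arrays is not stated; limma and Agilent Feature Extraction are the tools in the submitters' processing notes. RNA came from a TRIzol extraction and was amplified, per the labels' protocols.

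The 1639 control spots and outlier spots were left out. Log2 processed intensities were set relative to the 75th percentile of their array and averaged per probe (41174 probes). Probes well above background on at least 5 of 15 arrays were kept (38457), and the brightest per gene name was used (26117 genes). Groups, taken from the sample labels, were compared by lmFit and eBayes of limma 3.58.1 under R 4.3.3, two-sided, over 15 arrays with no covariate. The fit was tested on simulated data. The number of arrays limits the precision. The p-values set a difference against the spread between arrays within groups, pooled over the 3 groups and moderated across genes. That spread includes differences between slides.

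Genes named were those called in any comparison, the 10 with the smallest unadjusted p in each, and 19 core release genes. Of the other presynaptic genes, the 3 with the smallest unadjusted p in each comparison were named. Stx11, Stx4a, Sv2c, Syt5 and Syt8, outside this rule, are named because of values seen. Syn3, Rab3b, Rab3d, Snap91 and, among the promoter matches, Stxbp5 are also named outside this rule. Values of 1 release gene are not reported here, though it is included in the counts. The members and lists were chosen with earlier results of these data known. Alternatives covered background correction, scaling, filters, saturation, slide, probe choice, single arrays and the authors' table. Same-numbered control and E1 arrays were weakly correlated (0.14 to 0.30), so a fit with the number as a block is given beside the reported fit, which has no block. This pairing comes from the data, since the labels do not say what the numbers share. ELF arrays gave correlations of -0.43 to 0.31 with same-numbered control arrays and of -0.40 to 0.17 with same-numbered E1 arrays. Only for 3 of the 15 arrays did the best correlated array of another group have the same number.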

Additional observations from a re-analysis of the deposited data

Results flagged for a closer look

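In 9 of 105 groups of 5 arrays checked over the named release genes, 1 array stood apart by more than Dixon's 95% critical value of 0.71; chance alone flags about 1 group in 20. In E1, Syn1 read 5.15 on E1 5, with the nearest array at 4.20. Cplx1 read 3.96 on E1 2 against 4.07 or more on the others, and Stxbp2 read -3.32 on E1 4 against -2.81 or more. In ELF, array 2 stood apart for Stxbp4 at -2.70 (nearest -2.00), Sv2a at 1.96 (nearest 2.69), Syt14 at -5.42 (nearest -4.22) and Vamp1 at 1.79 (nearest 1.95). ELF 4 stood apart for Cplx4 at -8.07 (nearest -5.65) and Snap29 at 1.94 (nearest 1.81).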

How the results depend on the processing

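Beside the 0 release genes called by limma in each comparison (9, 17 and 6 at an unadjusted p under 0.05), the alternatives gave these counts. For E1 against control they were 1 under quantile normalization (Cplx4), 1 with slide as a fixed term (Sv2c), 1 in the authors' table (Cplx4), 6 with the replicate block over control and E1 arrays, and 0 to 2 when 1 array was left out, with 2 without control 5 (Cplx4 and Syn1). For ELF against control they were 1 under quantile normalization (Unc13d), 2 with the array median as reference (Unc13d and Vamp8), 1 with slide (Sv2c), 4 in the authors' table (Stx4a, Syt1, Unc13d and Vamp8), 3 after GC centring (Unc13d, Vamp8 and the saturated Rab3a), and 0 to 9 with 1 array left out, with 9 without ELF 4 and 2 without control 5. For ELF against E1 slide gave 11, and leaving out 1 array gave 0. Slide as a random block and the replicate block over 15 arrays gave 0 in each comparison. The consensus correlation of arrays on a slide was 0.468. With slide as a random block, limma gave 1, 4 and 10 release genes at an unadjusted p under 0.05 in the 3 comparisons. The median of the 68 genes for E1 minus control was 0.02 under quantile normalization, -0.04 with slide, and 0.04 to 0.09 with 1 array left out. For ELF minus control it was -0.05 with the array median as reference, -0.11 with slide, -0.04 in the authors' table, -0.04 after GC centring and 0.02 to 0.07 with 1 array left out. For ELF minus E1 it was -0.08, -0.09, -0.07 and -0.10 under these 4 alternatives, and -0.04 to 0.00 with 1 array left out. The array median as reference moved the median of all genes for ELF minus control from 0.10 to 0.00. Among the genes called with slide for ELF minus E1, Syt2 reversed from 0.26 to -0.52 and Stx11 from 0.24 to -0.93. Syn3 reversed from 0.17 to -0.73 and the dim Sv2c from 0.23 to -0.70. The causes were not tested. GC centring, probes without saturation and the replicate block over control and E1 arrays were chosen after seeing the data. Dim signal limits Cplx4, Syt8 and Sv2c, and saturation limits Cplx2, Rab3a, Snap25 and Syn2.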
